A study of Mus musculus with 60 samples.

Results

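The liver of old, untreated mice was compared with 5 other organs of mice kept the same way, to describe which transcripts set this organ apart. The liver libraries were chosen by their labels alone: 5 libraries of liver without doxycycline, of the 30 untreated and 60 libraries of the whole series. They were set against 5 untreated libraries each of kidney, lung, skeletal muscle, skin and spleen, 25 in all.

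Each tissue had the same mix of animals. Of the 5 libraries, 3 came from 4F mice, which carry 1 copy of a polycistronic cassette of the reprogramming factors Sox2, Oct4, Klf4 and c-Myc and 1 copy of the rtTA transactivator in a C57BL/6 background. These mice were 22 months old, replicates 1 and 2 were female and replicate 3 was male, and without doxycycline the cassette is not induced by design. The other 2 came from male C57BL/6 mice without the cassette, called B6, whose age is 25 months in the labels and 26 months in the series text. Strain therefore cannot be told apart from age, and largely not from sex. The labels do not say whether libraries of a group came from separate animals, or whether the tissues of 1 number came from 1 animal, so p-values measure the spread between these samples, which may be partly technical.

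The liver is built mostly from hepatocytes, which secrete most plasma proteins, make bile, store and release glucose, turn ammonia into urea and oxidise drugs and steroids. Kupffer cells, the resident macrophages of the sinusoids, together with sinusoidal endothelium, stellate cells and bile duct cells make up the rest. Many hepatocyte genes are driven by a shared set of transcription factors, among them the HNF4, FOXA and C/EBP families, and several of these factors also act in kidney tubules. In a bulk sample, fewer cells of a type and less RNA per cell cannot be told apart.

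Counts per library ran from 18517963 to 42569314, and the livers held 24758209 to 29308621. Levels below are scaled CPM, CPM being counts relative to the library's size, here after trimmed-mean (TMM) scaling, and the values of the 5 livers are given in the order 4F replicates 1, 2 and 3, then B6 replicates 1 and 2. Log2 fold changes are liver minus the other tissue, from edgeR's quasi-likelihood fit of all 30 libraries, with adjusted p-values (Benjamini-Hochberg) over 20133 genes and a standard error derived from the F statistic. A gene was called at an adjusted p under 0.05. Counts of Xist and Ddx3y matched the sex label in all 5 livers, but the library labelled 4F male skeletal muscle replicate 3 held 7874 counts of Xist beside 3379 of Ddx3y, and the library labelled 4F female skin replicate 1 held 249 counts of Ddx3y. B6 liver replicate 2 stood apart from the other livers: its log2 levels correlated with theirs at 0.866 to 0.884 across genes, against 0.971 to 0.989 among the other 4. Counts and the results that moved are given with and without it, and in some cases also without 6 libraries that stood apart or held transcripts of other tissues: that liver, 4F lung replicate 2, 4F muscle replicate 3, 4F skin replicate 1, 4F spleen replicate 2 and B6 spleen replicate 2.

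The tissue label held in every liver. The 12 genes that define hepatocytes in the list used here were called higher in liver than in each of the 5 tissues, and for all 12 every liver lay above every other library, as at 2.97% of all genes tested. Their summed level was 278000, 220000, 203000, 258000 and 79500 scaled CPM in the livers and at most 268 in any other library. Albumin, Alb, the main plasma protein, stood at 159000, 102000, 101000, 147000 and 39900 scaled CPM in the livers and between 0 and 142 elsewhere. The B6 replicate 2 liver was the lowest of the 5 at Alb, at a level still far above any library of another tissue.

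Apoc3, an apolipoprotein that slows the clearance of triglyceride-rich particles, was measured at 4630, 4890, 3690, 4330 and 521 scaled CPM in the livers (mean 3610 ± 1790, SD, n = 5). It ran from 4.49 to 29.9 in kidney, 0 to 1.20 in lung, 0.0309 to 3.59 in skeletal muscle, 0.190 to 3.09 in skin and 0 to 2.31 in spleen. The groups did not overlap in any comparison, and the lowest liver, B6 replicate 2, was more than an order of magnitude above the highest kidney. The log2 fold change of Apoc3 was 8.20 ± 1.42 (SE) against kidney (adjusted p = 4.48e-05), 14.23 against lung, 11.82 against skeletal muscle, 11.37 against skin and 12.46 against spleen. Without B6 liver replicate 2 these became 8.48, 14.47, 12.12, 11.61 and 12.84.

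Ttr encodes transthyretin, the plasma carrier of thyroxine and of retinol-binding protein. Its levels were 16600, 6320, 15100, 17700 and 987 scaled CPM in the livers (mean 11300 ± 7310, SD, n = 5), so that the female 4F replicate 2 and B6 replicate 2 were low and the other 3 lay together. Kidney was again the nearest tissue, at 33.9 to 114, while no library of lung, muscle, skin or spleen exceeded 9.15. The log2 fold change was 7.81 ± 1.40 against kidney (adjusted p = 6.61e-05) and 15.73 ± 1.85 against lung (adjusted p = 1.35e-07). Against muscle, skin and spleen it was 13.06, 11.50 and 12.48, and without B6 liver replicate 2 the 5 values were 8.14, 16.04, 13.42, 11.78 and 12.90.

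**Figure D1:**
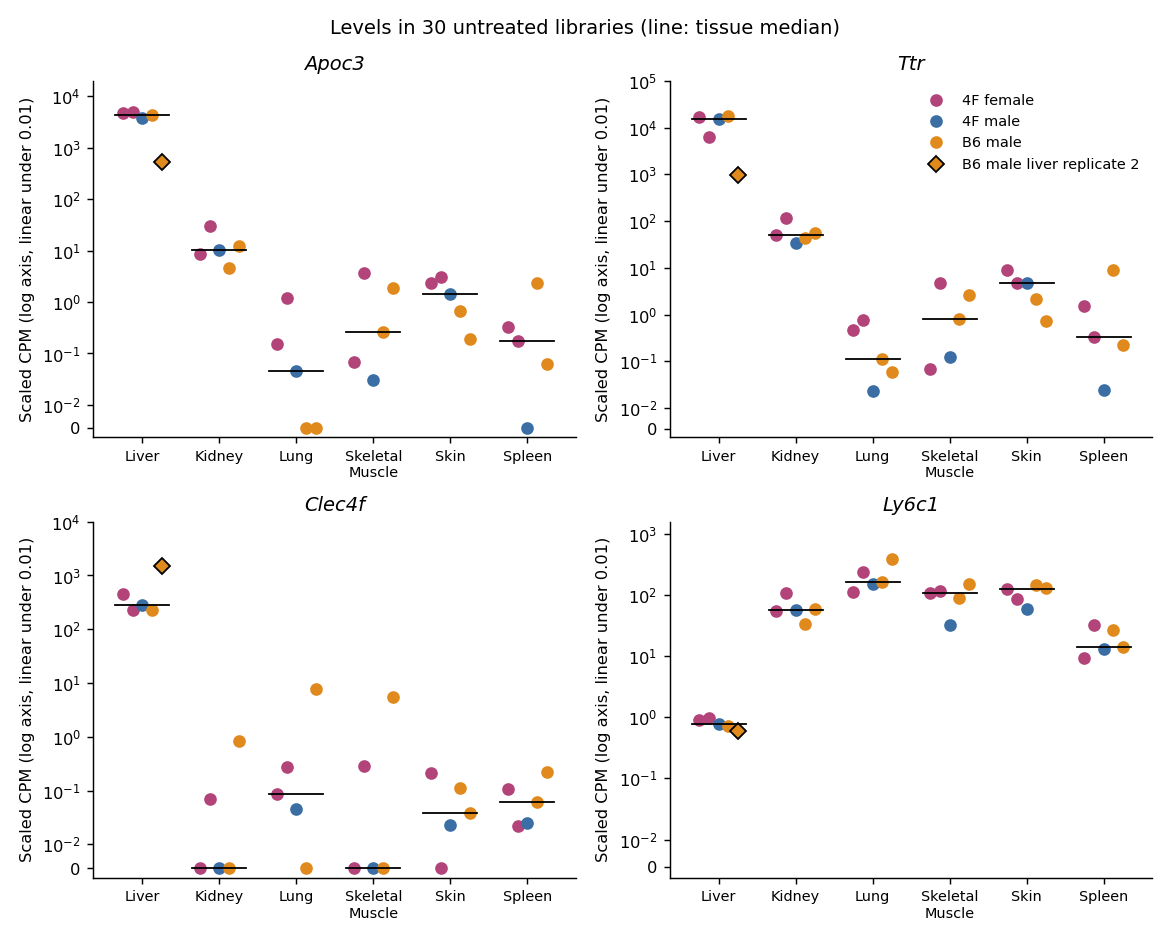
Scaled CPM (symmetric log axis) of Apoc3, Ttr, the Kupffer cell gene Clec4f and Ly6c1 in all 30 untreated libraries by tissue. Each point is a library, the line is the tissue median and the diamond is B6 liver replicate 2. The livers lie above every other library for the first 3 genes, with Apoc3 at 521 and Clec4f at 1490 in the diamond, and below every other library for Ly6c1.

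Against kidney, 4217 genes were higher in liver (20.9% of those tested) and 4595 lower (22.8%). Against lung there were 5566 higher (27.6%) and 5845 lower (29.0%), against skeletal muscle 5621 (27.9%) and 5707 (28.3%), against skin 4777 (23.7%) and 5677 (28.2%), and against spleen 5426 (27.0%) and 6220 (30.9%). The order of tissues by these counts was not tested, and the tissues differ in spread and in foreign transcripts.

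Leaving out B6 liver replicate 2 raised the number of genes lower in liver in every comparison, to 5498 against kidney, 7393 against lung, 6319 against muscle, 6770 against skin and 7447 against spleen. The genes higher in liver changed less, to 4208, 5841, 5348, 4865 and 5691 in the same order. The balance of directions depended on the scaling: with library totals alone in place of TMM, 1736 genes were higher and 9067 lower than in kidney, 2280 and 11601 for lung, 2433 and 9151 for skin, and 2785 and 11523 for spleen. Muscle moved the other way, to 5959 higher and 4890 lower. The TMM factors were 0.609 to 0.656 in the livers other than B6 replicate 2 and 0.975 in that library, and without the factors the median log2 fold change of all genes moved from 0.02 to -0.67 against kidney and from -0.10 to -1.08 against lung.

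**Figure D2:**
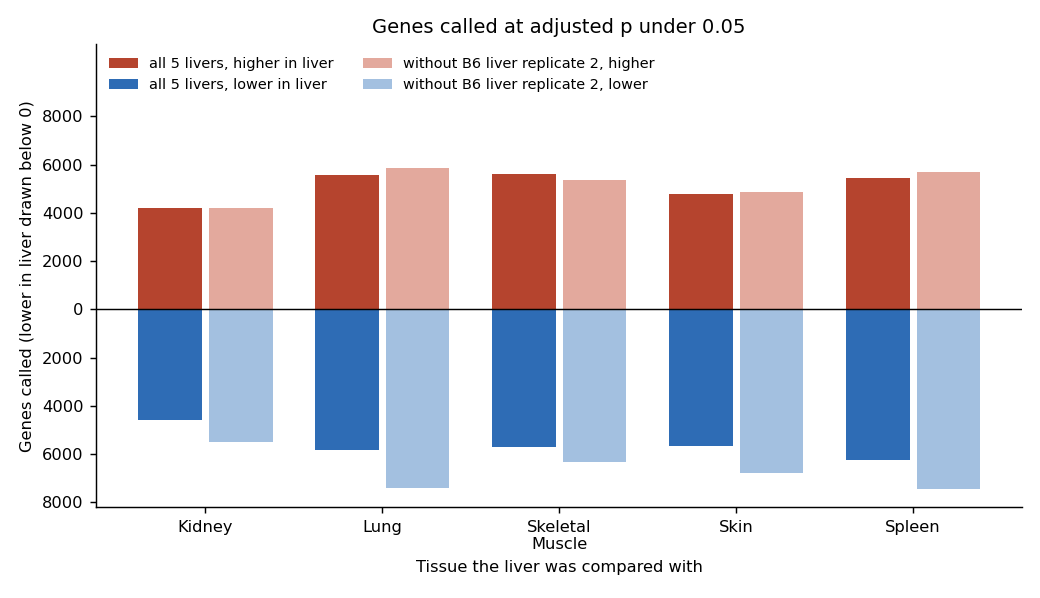
Number of genes called higher (above 0) or lower (below 0) in liver than in each tissue, with all 5 livers and without B6 liver replicate 2. The lower bars are longer without that library in all 5 comparisons, from 4595 to 5498 genes for kidney and from 6220 to 7447 for spleen.

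A set of 665 genes (3.30% of those tested) was called higher in liver than in each of the 5 tissues by at least 4-fold, and is called liver-enriched below. Without B6 liver replicate 2 the set held 781 genes, 660 of them the same. With library totals alone in place of TMM it held 457, all among the 665. The 665 genes took up 44.9% to 47.7% of all counts in 4 livers, 23.9% in B6 liver replicate 2 and 0.306% to 2.28% in the other 25 libraries. Of the 665, 552 were protein-coding (83.0%, against 80.2% of all genes tested), 38 were lincRNAs and 26 antisense genes. Every liver lay above every other library at 597 of all genes tested (2.97%), and at 1490 (7.4%) when B6 liver replicate 2 was left out.

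Per transcript length (TPM from the union of a gene's exons), the highest liver levels were those of secreted proteins, lipoprotein genes and mitochondrial genes. The median over the 5 livers was 70100 TPM for Alb, 49100 for Apoa2, 26400 for Apoe, 26200 for Apoa1, 21500 for mt-Cytb, a mitochondrial cytochrome, 19000 for Ttr and 18000 for the haem scavenger Hpx. In B6 replicate 2 Hpx was at 27500 TPM against 9490 to 20900 in the other livers and Hp at 18500 against 7040 to 20400, whereas Apoa2 was at 4390 against 48300 to 54100. TPM is not TMM-scaled. On scaled CPM, none of the 12 hepatocyte-defining genes, Hpx among them, was higher in that library than in every other liver.

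The genes with the widest gap between liver and its nearest other tissue were mostly enzymes of drug, steroid and bile acid metabolism. They were picked by the ratio of mean unscaled CPM, so their fold changes are descriptive. Cyp2c54, a cytochrome P450 of fatty acid and drug oxidation, was at 174, 525, 286, 341 and 9.91 scaled CPM in the livers and at most 0.140 in any other library, with 2 to 7 counts over the 5 libraries of each other tissue. Cyp2c70, which hydroxylates bile acids to the muricholic acids of rodents, was at 1110, 1200, 744, 764 and 342 and at most 0.715 elsewhere. Slco1b2, an uptake transporter for organic anions on the sinusoidal face of hepatocytes, was at 1060, 986, 1770, 1500 and 134 and reached 0.922 in a skin library. B6 replicate 2 was the lowest liver for all 3.

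Apoa5, an apolipoprotein that promotes triglyceride clearance, was at 2310, 2580, 2620, 2730 and 604 scaled CPM, a log2 fold change of 11.95 ± 1.86 against kidney (adjusted p = 1.17e-05). Agxt, the aminotransferase that removes glyoxylate, was at 661, 485, 575, 552 and 57.1, and no library of another tissue exceeded 0.527. Hsd17b6, a steroid and retinol dehydrogenase, had 0 counts in all 5 lung libraries and was at least 13800-fold higher in liver, taking 3 counts over those libraries as the limit. The remaining 6 genes of this kind were Cyp3a25, Cyp2c37, Cyp2a12, Ces1c, Ahsg and Cfhr2, with mean liver levels between 329 and 10500 scaled CPM and log2 fold changes against kidney between 11.58 and 12.02. Ahsg, the plasma glycoprotein fetuin-A, was at 6610 in B6 replicate 2 against 8840 to 13900 in the other livers.

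Many liver-enriched genes lay side by side on the chromosomes. Among protein-coding genes tested, 169 of 552 liver-enriched genes (30.6%) had an enriched gene as direct neighbour, against 870 of the others (5.58%). Runs of at least 4 (GRCm38, GENCODE vM21) included 10 Cyp2c genes on chromosome 19 from 39007019 to 40187333, 5 Serpina1 genes and Serpina11 on chromosome 12 from 103728156 to 103989957, 5 Ugt2b genes on chromosome 5 from 86889767 to 87140318, Apoa1, Apoc3, Apoa4 and Apoa5 on chromosome 9 from 46228580 to 46271919, and Clstn3, C1rl, C1ra and C1s1 on chromosome 6 from 124430759 to 124542359. Cyp2c, Serpina1 and Ugt2b genes are near-identical copies, and how reads were shared among them is not given in the sources used here, so single values within these families are uncertain.

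The promoters of liver-enriched genes were read from RefSeq (build GRCm38.p6) as the 250 bases before a RefSeq start. Where a gene had several, the start nearest the 5′ end of the GENCODE gene was taken. Such promoters existed for 416 of 552 liver-enriched and 12559 of 16154 tested protein-coding genes. The 2 starts can differ, so a window may be shifted against the GENCODE gene. Among the words searched, on both strands unless said otherwise, were CAAAGTCCA for HNF4, TTGCGCAA for C/EBP, TGTTTAC for FOXA, and TATAAA on the gene's strand for the TATA box. The HNF4 word was in 8 of 416 liver-enriched promoters (1.92%) and 48 of all 12559 (0.382%). The FOXA word was in 18 (4.33%) and 306 (2.44%), TATAAA in 44 (10.6%) and 625 (4.98%), and the C/EBP word in 1 (0.240%) and 29 (0.231%). Liver-enriched promoters were poor in CG pairs, with a median of 4 against 14 over all promoters.

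The HNF4 word was in Cyp2c67, Cyp2c68, Cyp2c69 and Cyp2c70, whose promoters are related copies, and in Cyp3a11, Cyp8b1, Cd302 and Gimd1. It was not found in the 291 promoters of genes that were lower in liver than in every other tissue. At the rate over all promoters (0.382%) few matches would be found among so few, so this is no contrast. A match is only a stretch of letters, and no match says nothing about binding. The 3 promoters below are printed 5′ to 3′ on the gene's strand, ending at the base before the RefSeq start. They show the HNF4 and TATA words and a strongly liver-enriched gene without one in this window. The RefSeq start lay 47 bases from the GENCODE gene's 5′ end for Cyp2c70, 27 for Alb and 0 for Cyp8b1. Capitals mark the words found: CAAAGTCCA in Cyp2c70 at bases 64 to 56 before the start and in Cyp8b1 at 67 to 59, and TATAAA in Cyp8b1 at 31 to 26.
Cyp2c70, chr19:40187287-40187536, minus strand: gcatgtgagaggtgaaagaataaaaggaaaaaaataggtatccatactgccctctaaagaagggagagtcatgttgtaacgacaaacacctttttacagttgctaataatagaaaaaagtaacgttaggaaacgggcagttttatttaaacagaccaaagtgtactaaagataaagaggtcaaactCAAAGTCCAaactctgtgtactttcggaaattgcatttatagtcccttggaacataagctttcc
Cyp8b1, the sterol 12-alpha-hydroxylase of bile acid synthesis, chr9:121916306-121916555, minus strand: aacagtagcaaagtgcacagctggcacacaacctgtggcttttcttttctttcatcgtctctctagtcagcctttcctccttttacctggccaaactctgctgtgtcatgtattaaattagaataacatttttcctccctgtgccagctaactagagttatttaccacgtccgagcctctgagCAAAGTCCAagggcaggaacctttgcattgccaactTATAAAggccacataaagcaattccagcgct
Alb, no exact match, chr5:90460620-90460869, plus strand: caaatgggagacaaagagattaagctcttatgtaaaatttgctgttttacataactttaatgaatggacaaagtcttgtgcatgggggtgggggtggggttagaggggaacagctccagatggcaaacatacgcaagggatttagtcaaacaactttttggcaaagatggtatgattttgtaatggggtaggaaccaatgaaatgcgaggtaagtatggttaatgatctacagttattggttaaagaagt

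Gc, the plasma vitamin D binding protein, was at 12300, 8270, 10500, 9500 and 3120 scaled CPM in the livers, and kidney was the only other tissue above 10, at 26.9 to 281. Cfhr2 was at 498, 555, 657, 819 and 113 and at most 0.431 elsewhere. Cyp8b1, one of the genes whose promoters are shown, was at 313, 37.1, 262, 461 and 8.93, and its lowest liver was still above the highest other library, a lung at 1.06.

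Secreted plasma proteins were high throughout. All 29 tested members of the plasma protein list were liver-enriched, with a median log2 fold change of 8.56 against kidney, 12.40 against lung, 11.60 against muscle, 11.25 against skin and 11.67 against spleen, where the medians over all genes lay between -0.19 and 0.04. For 28 of the 29 every liver lay above every other library. The smallest gaps to kidney were these: Igfals, the acid-labile partner of IGF1 in plasma, had a log2 fold change of 2.75, Agt, the angiotensin precursor, 3.40, and Azgp1, a fat-mobilising glycoprotein, 4.39. The carrier Serpina6, which binds glucocorticoids, was at 849, 1510, 812, 628 and 10.4 scaled CPM, a much lower value in B6 replicate 2 than elsewhere.

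Among clotting factors and their inhibitors, 17 of 20 were liver-enriched and none was lower in liver. Fga, Fgb and Fgg, the chains of fibrinogen, had the highest levels per length of the list. Fgb was at 8870, 7910, 5540, 6040 and 6340 scaled CPM in the livers, so that B6 replicate 2 lay within the range of the rest. The 3 that were not liver-enriched were F13b and Proc, whose log2 fold changes against kidney of 1.08 and 2.39 did not pass the test, and Pros1, the vitamin K dependent protein S, at 0.46 against lung. Proc, the anticoagulant protein C, stood at 106 to 234 in kidney and at 1150, 911, 1110, 1260 and 175 in liver.

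Acute-phase genes, which the liver induces in inflammation, were liver-enriched at 16 of 18. Their levels were unequal among the livers: Saa1, serum amyloid A, was at 630, 143, 410, 83.3 and 794 scaled CPM, and Orm2, an orosomucoid, at 376, 431, 201, 27.4 and 699. Saa1 and Saa2 are near-identical, so their separate values are uncertain. Lcn2, a siderophore-binding protein of hepatocytes and neutrophils, was at 569, 876, 244, 32.3 and 3520 and was not called against lung (1.36) or spleen (1.68), where libraries reached 765 and 753. Lbp, which binds lipopolysaccharide, was called higher in all 5 comparisons but reached only 1.41 against skin.

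Of 19 lipoprotein genes tested, 17 were liver-enriched. Apoa2 was at 17900, 16400, 19500, 19400 and 861 scaled CPM in the livers and at most 10.7 elsewhere, a log2 fold change of 11.07 ± 1.67 against kidney (adjusted p = 8.09e-06). Apoe, which macrophages and other cells also make, was at 39500, 26900, 46900, 39800 and 8710. Its nearest tissues reached 8050 in 1 muscle library and 2400 in skin, and the fold change was 4.14 against spleen (adjusted p = 0.000464). Apom, a carrier of sphingosine 1-phosphate, was the member not called against kidney, at 1.98, where it ranged from 51.2 to 117. It was called there without B6 liver replicate 2, at 2.11 (adjusted p = 0.043), and 19 of 20 tested genes were liver-enriched. Scarb1, the receptor that takes up HDL cholesterol, was called higher in liver everywhere but by less than 4-fold against lung and spleen. Apob illustrates the kidney: 115 to 462 there and 4290, 3630, 5120, 4640 and 1790 in liver, against at most 41.4 in any other library.

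Most steps of bile acid synthesis were liver-enriched, and some were not called against kidney. Cyp7a1, the rate-limiting enzyme, was at 235, 350, 136, 259 and 19.6 scaled CPM and at most 0.240 elsewhere. Slc27a5, the bile acid CoA ligase, was at 1770, 1950, 1660, 1300 and 174 and at most 1.59 elsewhere (log2 fold change 10.89 ± 1.09 against kidney, adjusted p = 2.01e-08). In all, 8 of 12 synthesis genes were liver-enriched. Amacr (0.26), Acox2 (1.17) and Cyp7b1 (1.20) were not called against kidney, and Hsd17b4 was called higher in liver than in kidney, but only by 1.05.

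Bile transporters followed the same division, with 7 of 12 liver-enriched. Slc10a1 (NTCP), which takes bile acids up from blood, was at 865, 1040, 1040, 1080 and 82.6 scaled CPM and at most 1.10 in kidney. Abcb11, which exports them into bile, was at 793, 659, 746, 942 and 94.8 and at most 0.898 in any other library. The conjugate exporter Abcc2 (1.13) was not called against kidney. Abcb4, the phospholipid flippase of bile, was at 218, 132, 309, 225 and 109 in liver and 225 to 391 in skeletal muscle, and the difference of -0.58 was not called.

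Cytochrome P450 genes, which oxidise drugs, steroids and fatty acids, were mostly far higher in liver. Of 28 tested, 21 were liver-enriched, with median log2 fold changes of 10.19 against kidney and 13.29 against lung, or 12.67 against lung with genes at 0 counts there set to their bound. Cyp2e1, which oxidises ethanol and paracetamol, was at 4600, 7080, 11900, 7250 and 415 scaled CPM in liver and 107 to 1290 in kidney (3.09 ± 1.14, adjusted p = 0.0308). Cyp3a11, the main inducible drug oxidase of mouse liver, was at 2310, 3090, 4440, 7100 and 662 and at most 4.73 elsewhere. Against lung, Cyp2b10 was lower in liver by -3.26, at 54.6, 40.7, 38.8, 18.8 and 0.189 against 109 to 383, and Cyp2f2, known in club cells, at 1420, 905, 1470, 1830 and 87.3 against 981 to 2900, gave -0.80, which was not called.

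Conjugating and other detoxifying enzymes were liver-enriched at 17 of 28. Gstm1, a glutathione transferase, had the highest level per length, at 2900, 3170, 3740, 3440 and 279 scaled CPM, and was 2.76 higher than in kidney on the log2 scale. Adh1, alcohol dehydrogenase, was at 4210, 3860, 4640, 3770 and 431, with log2 fold changes from 3.54 ± 0.62 against kidney (adjusted p = 5.50e-05) to 10.41 against spleen. Ugt2b37 and Ugt2b38 went the other way against kidney, by -5.31 and -7.69: Ugt2b38 was at 0.842, 0.260, 0.590, 3.13 and 0.0757 in liver and 6.58 to 542 in kidney. Sult1d1, Fmo1 and Glyat were not called against kidney, where each reached a level above every liver.

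Cps1, the mitochondrial entry enzyme of the urea cycle, was at 2860, 6270, 4100, 3790 and 920 scaled CPM and at most 4.52 elsewhere, and Otc, the next enzyme, was at 594, 425, 656, 732 and 50.0 and at most 0.595. Ass1 joins citrulline to aspartate and is used in kidney for arginine synthesis. It stood at 132 to 488 there against 537, 703, 914, 531 and 81.1 in liver, a difference of 0.73 that was not called. The urea list had 5 of 8 genes liver-enriched. In amino acid breakdown, 29 of 29 were higher than in lung, in muscle and in spleen and 28 than in skin, but 20 than in kidney, where Aass, of lysine breakdown, gave -0.34 and was not called. Tat, which opens tyrosine breakdown, was at 4530, 7330, 5300, 3420 and 806 in liver and at most 8.66 elsewhere, and Gnmt, the methyl-group buffer, at 3030, 4490, 4530, 2960 and 262 and at most 74.8 elsewhere.

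Glucose genes differed less from kidney than from the other tissues in the number called. Against lung, skin and spleen all 14 were higher in liver, and 13 against muscle, but only 5 were called against kidney, where the median log2 fold change was 1.51. Among those 5 were Gys2, Pygl and Pklr, the glycogen synthase, glycogen phosphorylase and pyruvate kinase of liver. The enzymes of glucose release were not called against kidney: Pck1 was at 6640, 10900, 7480, 4600 and 1330 against 992 to 2820 (1.76), G6pc at 2400, 418, 793, 2190 and 144 against 226 to 717 (1.41), and Fbp1 gave 0.32. Without B6 liver replicate 2, 6 of the 14 were called against kidney, and 9 without the 6 libraries set aside.

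Of 12 fat oxidation genes, which many tissues use, 1 was liver-enriched and 4 were called higher than in kidney. These counts were 2 and 6 without B6 liver replicate 2. Acadl, a mitochondrial acyl-CoA dehydrogenase, was lower in liver than in muscle by -0.84, at 286, 272, 369, 322 and 107 against 282 to 655. Against kidney, Cpt1a, Cpt2, Ehhadh, Acadl and Cyp4a10 had log2 fold changes between -1.04 and -0.01, and none was called.

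**Figure D3:**
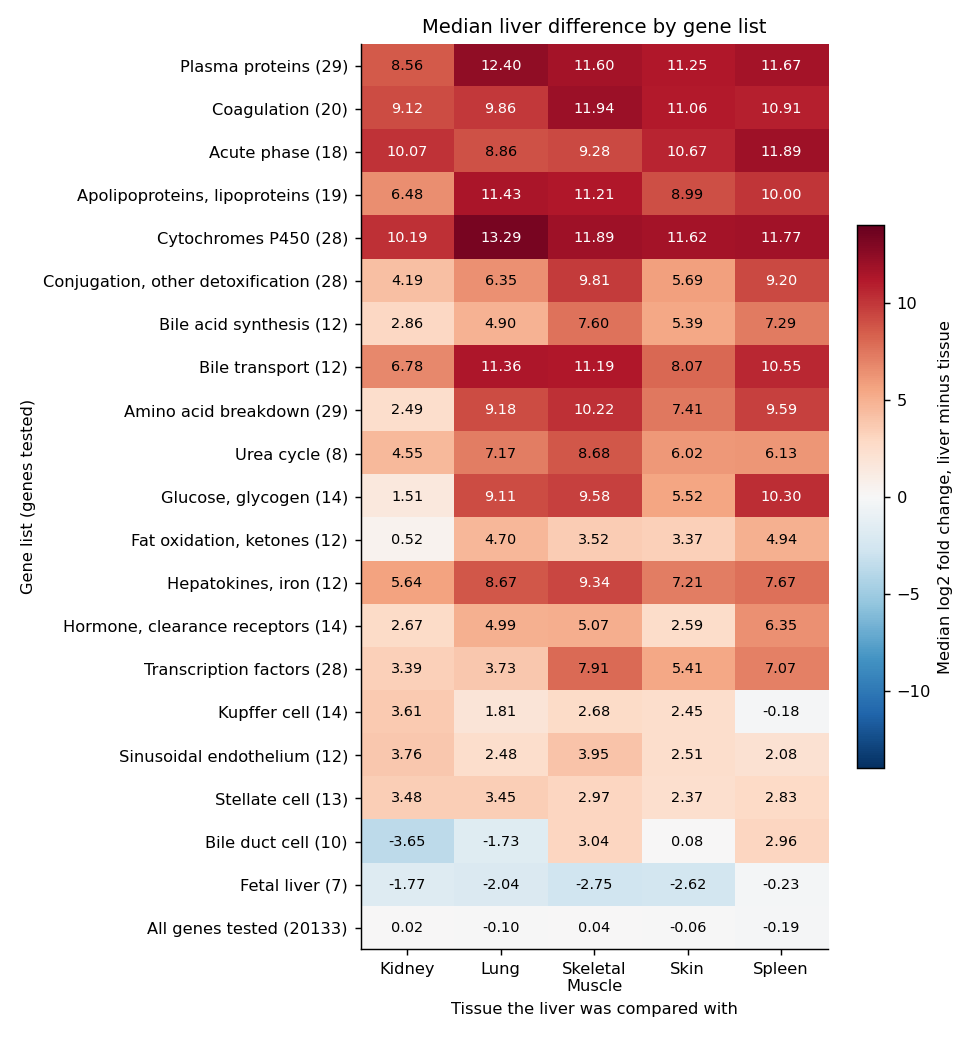
Median log2 fold change of liver against each tissue (columns) for each gene list (rows), as a colour scale with the value printed in each cell. Plasma proteins and P450 genes are high against all 5 tissues, glucose (1.51) and fat oxidation genes (0.52) have their lowest medians against kidney, and Kupffer genes are at -0.18 against spleen, a median that was -0.88 without B6 liver replicate 2.

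Leaving out B6 liver replicate 2 changed some of the list counts. Liver-enriched were then 30 of 30 plasma protein genes tested, 24 of 31 P450 genes, 18 of 29 amino acid genes (15 with it) and 18 of 28 conjugating enzymes. Hormones and iron regulators had 8, periportal genes 6 and stellate genes 5. The number was as with it for clotting (17), acute-phase (16), transcription factor (11), bile acid synthesis (8), bile transport (7), receptor (7), urea (5), glucose (5), pericentral (4), Kupffer (2) and sinusoidal genes (2), and for bile duct and fetal genes it was 0 both ways.

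Of 28 transcription factors tested, 11 were liver-enriched: Foxa3, Onecut1, Onecut2, Nr1i2, Nr1i3, Nr0b2, Nr5a2, Prox1, Creb3l3, Atf5 and Gata4. Nr1i3 (CAR), a nuclear receptor for drugs, was at 644, 1910, 754, 568 and 54.2 scaled CPM and at most 3.67 elsewhere. Onecut1 (HNF6) was low at 2.19, 4.94, 4.00, 4.04 and 2.84 but had 0 counts in all 25 other libraries. Foxa3 was at 144, 165, 90.6, 116 and 51.2 and at most 0.464 elsewhere.

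Hnf4a, a nuclear receptor of liver and kidney tubules, was at 729, 833, 786, 763 and 310 scaled CPM in liver and 445 to 1110 in kidney (-0.25 ± 1.08, adjusted p = 0.874), while no library of lung, muscle or spleen exceeded 1.52 and skin reached 85.3 in 4F replicate 1. Hnf4g was lower in liver than in kidney by -5.45. Against lung, Foxa1 and Foxa2 were at -0.93 and 0.75, neither called: Foxa2 was at 28.0, 77.4, 37.9, 50.6 and 9.38 in liver and 16.6 to 27.6 in lung. Zhx2 was lower in liver than in skeletal muscle by -1.31.

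Of the liver's hormones and iron regulators, 7 of 12 were liver-enriched. Hamp, hepcidin, which limits iron export, was at 342, 906, 670, 1730 and 323 scaled CPM and at most 1.83 elsewhere. Bmp6, which signals to hepatocytes to induce hepcidin, was lower in liver than in kidney (-3.41), lung (-3.87) and muscle (-2.14), at 4.27 to 10.2. Among hormone and clearance receptors 7 of 14 were liver-enriched, led by Asgr1, the asialoglycoprotein receptor, at 1560, 2070, 1490, 1300 and 212, and by the glucagon receptor Gcgr at 807, 810, 646, 774 and 74.0. The growth hormone receptor Ghr (0.13) and Fgfr4 (0.81) were not called against kidney, and Met, the HGF receptor, was lower in liver than in kidney by -1.01. None of 7 fetal liver genes tested was liver-enriched by edgeR (0 with unadjusted p under 0.05, 0 by DESeq2): Afp was between 0.572 and 4.16 scaled CPM in the livers, and Igf2 was lower in liver than in all 5 tissues, by between -5.00 and -2.46.

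Genes of the 2 ends of the liver lobule were both found. Among periportal genes, 5 of 10 were liver-enriched, among them Sds, serine dehydratase, at 641, 673, 629, 387 and 118 scaled CPM. Among pericentral genes 4 of 12 were, including Cyp1a2 at 719, 530, 948, 688 and 17.0. Glul, glutamine synthetase, which many tissues express, was at 1810, 1710, 1450, 1070 and 529 and was not called against kidney (1.04) or muscle (0.66). Axin2, a general target of Wnt signalling, was lower in liver than in skin by -1.56.

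Kupffer cell genes marked liver only at their most specific members. Clec4f, a lectin of mouse Kupffer cells, was at 450, 231, 278, 230 and 1490 scaled CPM and gave log2 fold changes of 12.35 ± 1.63 against kidney (adjusted p = 1.24e-06) and 12.98 against spleen. Vsig4, a complement receptor, was at 143, 104, 88.4, 78.6 and 2520, with fold changes from 5.20 against lung to 8.58 against kidney. These were the liver-enriched 2 of 14. Over the list the median against spleen was -0.18, and -0.88 without B6 liver replicate 2: Csf1r, the receptor of the main macrophage growth factor, gave -0.15, C1qa -0.36 and Adgre1 (F4/80) 0.23, none called.

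B6 liver replicate 2 had a summed Kupffer list of 16600 scaled CPM against 1520 to 2580 in the other livers, and the counts moved with it. With it, 13 of 14 Kupffer genes were called higher than in kidney and 3 than in spleen. Without it, 8 and 2 were. The other tissues of the group were not free of these genes: Clec4f was at 7.73 in B6 lung replicate 2 and 5.46 in B6 muscle replicate 2, and Vsig4 at 113 in that lung, where all remaining lung and muscle libraries were under 0.3 for Clec4f. The summed Kupffer list was also 5050 in 4F muscle replicate 3. Without the 6 libraries set aside, 13 were called higher than in kidney and 14 than in muscle, where 7 were with all libraries.

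Sinusoidal endothelium was represented by Clec4g and Oit3, the liver-enriched 2 of 12. Clec4g, a lectin of these cells, was at 163, 164, 174, 133 and 20.5 scaled CPM, and spleen, which has sinusoids of its own, was the nearest tissue at 2.45 to 22.6. Stab2, a hyaluronan scavenger, was at 128, 129, 101, 134 and 166 against 66.7 to 186 in spleen and was not called there (0.24). Stellate cell genes were liver-enriched at 6 of 13, among them Colec10, a collectin, at 56.8, 46.8, 63.2, 48.5 and 65.4 with at most 0.115 elsewhere, and Gdf2 (BMP9) at 39.9, 38.5, 39.6, 30.5 and 69.4. Des, desmin, was lower in liver than in skeletal muscle (-8.96), skin (-7.98), lung (-3.36) and spleen (-2.04).

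Bile duct genes did not set liver apart. None of 10 was liver-enriched by edgeR (0 with unadjusted p under 0.05, 0 by DESeq2) and 7 were lower than in kidney. Krt19, a keratin of ducts, was at 1.57, 1.51, 1.77, 2.48 and 2.27 scaled CPM in liver, 3.65 to 18.4 in kidney and 87.4 to 218 in lung. Epcam was at 2.58, 4.47, 2.49, 3.72 and 4.58 against 92.0 to 318 in kidney.

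A smaller set of 452 genes (2.25% of those tested) was lower in liver than in each of the other tissues by at least 4-fold. Without B6 liver replicate 2 it held 790 genes, 414 of them the same, so this count rests in part on that library. In every liver 371 genes (1.84%) lay below every other library. The gene with the widest gap was Ly6c1, a surface protein of endothelium and monocytes, at 0.898, 0.988, 0.786, 0.717 and 0.605 scaled CPM in the livers. It ran from 9.41 to 32.6 in spleen, the nearest tissue, and from 111 to 390 in lung. The log2 fold changes were -4.56 ± 0.43 against spleen (adjusted p = 6.91e-09) and -8.02 ± 0.49 against lung (adjusted p = 1.70e-11).

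Other genes of this kind act in vessels, matrix and acetate use. Sema3g, a secreted semaphorin of arterial endothelium, was at 0.281, 0.520, 0.459, 0.326 and 1.82 scaled CPM in liver and at least 7.36 in every other library. Acss1, the mitochondrial enzyme that makes acetyl-CoA from acetate, was at 2.47, 2.18, 2.88, 2.09 and 4.96 and at least 26.6 elsewhere, with a fold change of -6.51 against kidney. Limch1, an actin-binding protein, was at 1.29, 0.624, 1.05, 1.17 and 6.36 and at least 21.7 elsewhere. Parm1, Rgcc, Egflam and Sema7a were the other 4, with fold changes between -3.67 and -7.29. B6 replicate 2 was the highest liver for Sema3g, Acss1 and Limch1, but not for Ly6c1, where it was the lowest.

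Some genes that mark the other tissues, picked for their small ratios in these data, were nearly absent from liver. Marker lists of blood cells were not: plasma cell genes summed to 407 to 3910 scaled CPM in the livers and red cell genes to 664 to 3840. Scgb1a1, of airway club cells, had 0 counts in all 5 livers and 15100 to 27000 scaled CPM in lung, so lung was at least 672000-fold higher, with 3 counts over the livers as the limit. Myh4, a fast myosin heavy chain, had 0 counts in the livers and 46500 to 64800 in muscle, at least 1770000-fold higher. Kap, the androgen-regulated protein of kidney tubules, was at 0, 0.416, 0, 0.0652 and 0 in liver and 1070 to 23100 in kidney. Tlx1, a factor required to form the spleen, was at 0.0561 in 1 liver and 0 in 4, and at 12.1 to 39.0 in spleen, a fold change of -10.84 ± 1.03 (adjusted p = 3.19e-08).

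The skin comparison carries muscle genes with it. Acta1, skeletal muscle actin, was at 13300 to 23100 scaled CPM in all 5 skins and 25000 to 58400 in muscle, and all 10 muscle markers were lower in liver than in skin. Of 10 kidney markers 9 were also lower in liver than in skin, where Kap reached 2960 in 4F replicate 1, and 1 of 10 without the 6 libraries set aside. Likewise Acta1 was at 1060 in 4F lung replicate 2, and Ctrb1, a pancreatic protease precursor, at 469 in 4F spleen replicate 2 and 0 in the livers. The part of these transcripts in the comparisons was not tested beyond leaving the libraries out. Of the genes highest over each tissue, Ces2a, Ces3a and Rdh7, enzymes of ester and retinol metabolism, were at 22.6 to 447, 56.9 to 2530 and 235 to 1900 in the livers and under 2 in every other library.

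The 5 livers were not alike, and B6 replicate 2 differed most. It was the highest of the 5 livers at 7653 genes (38.0%) and the lowest at 6296 (31.3%), where the other 4 were highest at 10.3% to 20.0% and lowest at 9.77% to 16.6%. The P450 list summed to 2390 scaled CPM there and 20700 to 30300 in the other livers, conjugating enzymes to 2860 against 20600 to 30600, amino acid enzymes to 4830 against 29200 to 42500, and plasma proteins to 82900 against 208000 to 284000. All 29 amino acid enzymes, 14 glucose genes, 12 bile acid synthesis genes and 8 urea cycle genes were lower in this library than in any other liver. Acute-phase genes were mixed. Their sum of 44500 lay within 30600 to 65500, and 5 of 18 (27.8%) were above every other liver and 6 (33.3%) below. As a share of all counts, without TMM scaling, the list was highest in this library, at 4.34% against 1.86% to 4.3%.

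Genes of macrophages, neutrophils and dividing cells had higher values there. Neutrophil genes summed to 2180 scaled CPM against 15 to 131, cell division genes to 383 against 6.03 to 36.5, and plasma cell genes to 3910 against 407 to 774. All 8 neutrophil and all 8 division genes were above every other liver: Mki67, a marker of cycling cells, was at 156 against 1.09 to 10.8. Ccl8, a monocyte chemokine, was at 396 against 0.156 to 1.07, Trem2, of lipid-laden macrophages, at 341 against 3.14 to 4.06, and the collagen gene Col1a1 at 348 against 1.25 to 7.04. Among sinusoidal endothelial genes, Lyve1 was at 326 against 4.21 to 9.04, and Clec4g at 20.5 against 133 to 174. Marco was the only Kupffer gene below the rest, at 22.6 against 37.8 to 61.7. High neutrophil values were not limited to the liver of the B6 replicate 2 libraries: the neutrophil genes took 0.298% of counts in B6 lung replicate 2 against 0.0295% to 0.119% in the other lungs, and 1.28% in B6 spleen replicate 2 against 0.0795% to 0.57%. In kidney and muscle B6 replicate 2 was also the highest, at 0.0108% and 0.0424%, and in skin it lay within the range of the rest. Kupffer genes were highest in B6 replicate 2 in kidney (0.0755%), lung (0.281%) and spleen (0.577%) too. In muscle (0.0245%) and skin (0.0855%) the only higher libraries were 4F muscle replicate 3 (0.384%) and 4F skin replicate 1 (0.094%). Both are among the 6 libraries set aside. The liver values are those of 1 library, so no test of them was made, and what sets that library apart was not tested.

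**Figure D4:**
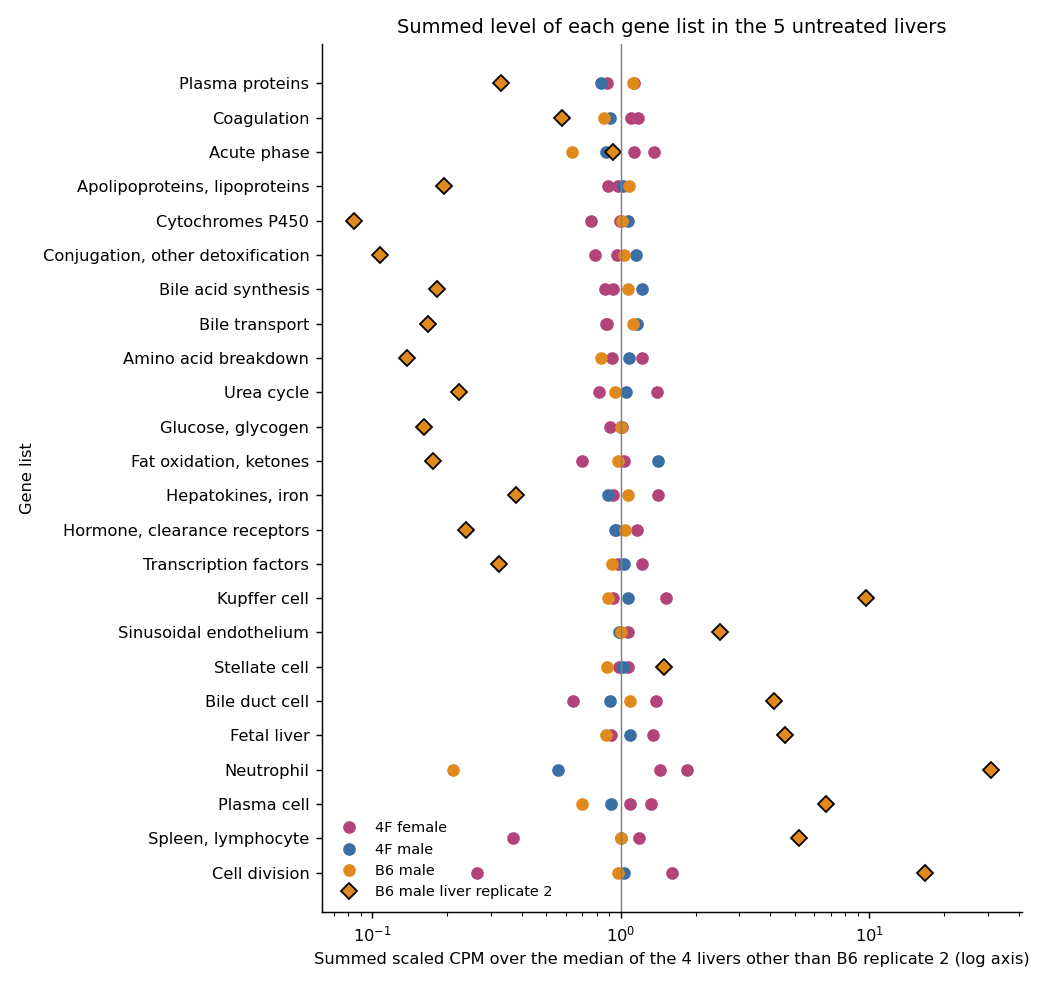
Summed level of each gene list in each untreated liver divided by the median of the 4 livers other than B6 replicate 2 (log axis), 1 symbol per library. In B6 replicate 2 metabolic lists lie to the left, with P450 genes at 2390 scaled CPM, and Kupffer (16600), neutrophil (2180) and cell division genes (383) to the right, while the other livers lie mostly near 1.

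4F liver replicate 2, a female, stood apart in a narrower way. Cux2, a transcription factor known from female liver, was at 23.0, 336, 0.590, 1.30 and 2.23 scaled CPM, and the oxysterol hydroxylase Cyp39a1 at 21.2, 260, 12.6, 16.5 and 10.2. Mup3 and Mup20 encode major urinary proteins, and 3 of the 21 listed Mup genes passed the filter on low counts. They passed it mainly through the livers, as the list summed to at most 7.16 scaled CPM in any other library. That all 3 were liver-enriched is therefore no separate result. Mup3 was at 1940, 3.54, 4340, 11600 and 17.6, and Mup20 at 16.6, 0.156, 227, 1450 and 34.3. Fabp1, the liver fatty acid binding protein, was at 1190 TPM there and 1050 in B6 replicate 2, against 14500 to 23600 in the other 3.

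The female livers, 4F replicates 1 and 2, were also compared with the 3 males in the same libraries, with sex crossed with tissue. 9 genes were higher in females (0.0447% of those tested) and 6 in males (0.0298%). Cux2 (7.0 ± 1.13, adjusted p = 0.0157) and Sult2a3, a sulfotransferase at 54.4, 31.6, 0, 0 and 0 scaled CPM (adjusted p = 0.0435), were among the first. Without B6 liver replicate 2 Cux2 was still called (adjusted p = 0.0326) and Sult2a3 was not (adjusted p = 0.0875), and the counts were 7 and 11. The Y-linked Ddx3y, Eif2s3y, Kdm5d and Uty were 4 of the 6 higher in males. The others were Zfp979 (-6.03) and Dpy19l3 (-2.82), whose sex difference in liver also differed from its mean over the other tissues, by -6.30 and -2.94 (adjusted p = 0.0466 for both). These were the 2 genes (0.00993%) with such a difference towards males, and 0 had one towards females by edgeR (226 at an unadjusted p under 0.05, and 10 by DESeq2). There were 5 towards males and 2 towards females without B6 liver replicate 2.

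The sex contrast called few genes. Without 4F liver replicate 2 it called 2 and 0 genes, and Xist itself had an adjusted p of 0.45 with a log2 difference of 9.51. All males but 1 were B6 mice, so sex and strain are nearly the same split. Of 18 genes listed as female-biased in mouse liver 9 passed the filter on low counts, and 2 of them, Cux2 among them, were called. Genes with high values in both females, such as Sult3a1 at 256, 271, 2.10, 0.130 and 0 and Cyp2b13 at 450, 178, 3.21, 7.56 and 0, did not pass that filter and were not tested. The filter was grouped by tissue, with 5 libraries each. It thus dropped genes that reached its minimum in fewer than 5 libraries, however high they were there. Genes limited to the livers of 1 sex could be left out this way, so the few calls do not count them. None of 16 male-biased genes was called by edgeR (10 at an unadjusted p under 0.05, 1 by DESeq2), though Cyp4a12a stood at 0.786, 0.104, 282, 197 and 0.0757 and Hsd3b5, not tested, at 0.225, 0.468, 3.41, 225 and 0. B6 replicate 2, a male by label and by its Y-linked counts, had the lowest sum of the female list, 71.0 scaled CPM against 535 to 6590, and was below every other liver at 6 of 16 male-biased genes and above them at 1.

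**Figure D5:**
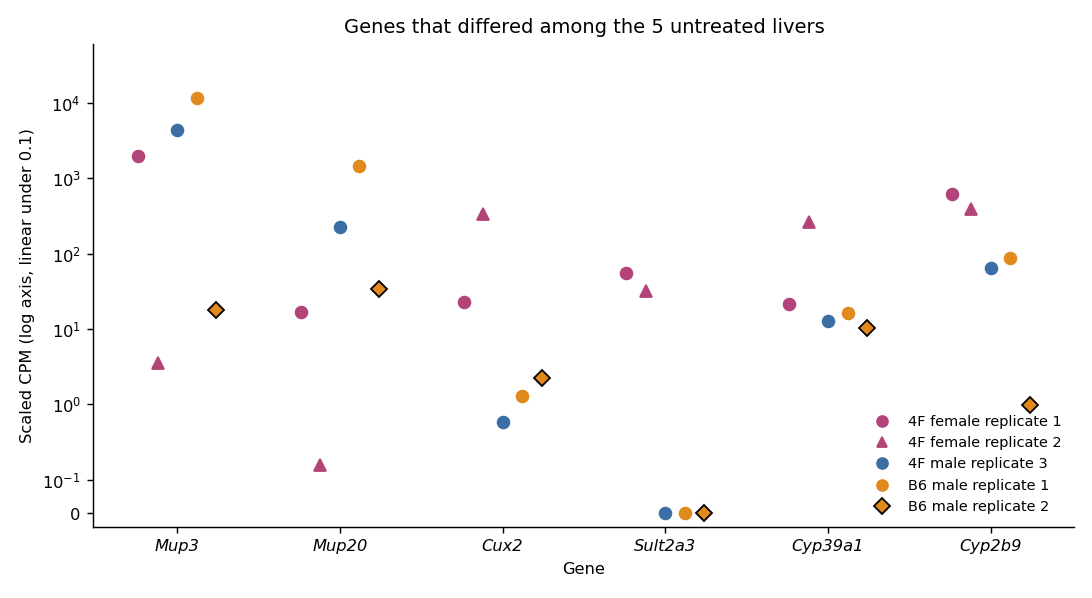
Scaled CPM (symmetric log axis) of Mup3, Mup20, Cux2, Sult2a3, Cyp39a1 and Cyp2b9 in the 5 untreated livers, with 1 symbol per library. Cux2 reaches 336 in 4F replicate 2, where Mup3 is at 3.54, and B6 replicate 2 is low for Mup3 (17.6) and lowest for Cyp2b9 (0.984).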

How the data were processed

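Total RNA was extracted with the Qiagen RNeasy kit and made into Illumina TruSeq Stranded Total RNA libraries, per the labels' protocols. The authors deposited raw read counts per Ensembl gene for 60 libraries in 1 table, and each library's own file held the same counts (60 of 60). The genome build is GRCm38, per the submitters' processing notes. No aligner, counter, strand setting or annotation release is given in the sources used here, so reads of overlapping, antisense or near-identical genes cannot be told apart. Symbols and exon lengths came from GENCODE vM21, which matched 52489 of 52636 IDs. In no library did the other 147 exceed 0.0113% of counts.

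The 30 untreated libraries were fitted together with edgeR 4.0.16 in R 4.3.3: filterByExpr with a count minimum of 10 and a total minimum of 15, TMM scaling, and a robust quasi-likelihood test with tissue and animal class (4F female, 4F male, B6 male) as terms, which left 22 residual degrees of freedom. Sex was tested within tissue in a second fit with 18. In both fits the filter was grouped by tissue. Adjusted p-values are Benjamini-Hochberg over 20133 genes, and SE is the size of the log2 fold change over the square root of F. The steps were also run on simulated counts with the same means in all tissues, but for a set of genes raised in liver. The simulation lacks the many tissue differences and the outlying library of the real data. It therefore checks the steps only, not the calls given here. Figures and summaries used Python 3.11.15 and pandas 2.3.3.

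The members and gene lists were chosen with earlier results of these data known. Besides Apoc3, Ttr and list members, named genes were those with the largest or smallest ratios of mean unscaled CPM between liver and other tissues, with at least 10 CPM in the higher group and predicted genes and pseudogenes left out. For the sex contrast they had to pass the test and reach 1 CPM in liver. Col1a1 and the genes named for B6 liver replicate 2 and 4F liver replicate 2 alone were chosen after their values were seen. Alternatives were DESeq2 1.42.0 and its size factors, no filter, other models and subsets, other fold thresholds, each replicate left out and, added after seeing the data, library totals alone and a replicate block. Intervals and limits from 3 counts cover counting error only. Some list members and a further promoter word are not reported here.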

Additional observations from a re-analysis of the deposited data

Results flagged for a closer look

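Of 40 summed lists and genes examined over the 5 untreated livers, 14 had a highest or lowest library farther from the rest than Dixon's 95% limit for 5 samples (0.71), where chance alone sets apart about 1 in 20. In 12 of the 14 that library was B6 replicate 2. It was low in lipoprotein genes (20700 scaled CPM), glucose genes (3820), hormone and clearance receptors (1410) and Apoc3 (521). Its sums were high for Kupffer genes (16600), neutrophil genes (2180), plasma cell genes (3910), spleen lymphocyte genes (136) and cell division genes (383). They were also high for sinusoidal endothelial genes (2400), bile duct genes (712, of which Spp1 gave 658) and fetal liver genes (29.9), but the members of these 3 lists were mixed. Of 12 sinusoidal genes 6 were above and 5 below every other liver, and of 10 bile duct genes 4 and 2. Of 7 fetal genes 3 were above. Over all genes 38.0% were above and 31.3% below. These 12 come from 1 library and are not independent of each other.

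The other 2 were in other livers. Red cell genes summed to 3840 scaled CPM in 4F replicate 1, and male-biased genes to 15300 in B6 replicate 1, where Serpina1e alone was at 10900.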

How the results depend on the processing

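With 4F mice only, 2770 genes were higher in liver than in kidney. With B6 mice only, higher and lower counts were 987 and 1741 against kidney, 1418 and 2183 against lung, 3330 and 3107 against muscle, 1776 and 2712 against skin, and 1830 and 964 against spleen, with 337 liver-enriched and 103 lower in liver than everywhere. A test against a minimum fold change (glmTreat) gave 1602 and 2659, 2737 and 3858, 3273 and 3114, 2205 and 3565, and 3070 and 3258 in that order of tissues. Library totals alone gave 1736 and 9067 for kidney, 2280 and 11601 for lung, 5959 and 4890 for muscle, 2433 and 9151 for skin and 2785 and 11523 for spleen. With them 457 genes were liver-enriched and 765 lower everywhere. The set lower everywhere held 767 genes without 6 libraries and 205 when each tissue pair was fitted alone. With fold thresholds of 1 and 3 on the log2 scale, 1034 and 442 genes were liver-enriched and 811 and 224 lower everywhere. Why counts moved was not tested. The subsets hold fewer samples, and those of 4F and B6 mice also differ in strain and age.

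For the sex contrast in liver, no filter gave 14 genes higher in females, DESeq2 28 and 107 higher in females and males with 10 and 43 for the difference from other tissues, and 4F mice only 0 and 0 by edgeR, with 214 and 147 at an unadjusted p under 0.05. The difference from other tissues fell to 0 genes higher in males with DESeq2's size factors, with no filter and with 4F mice only.

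Leaving out each replicate gave 3647 to 4514 genes higher and 4176 to 5498 lower than in kidney, 5201 to 5841 and 5320 to 7393 for lung, 5217 to 6164 and 5331 to 6319 for muscle, 4374 to 5159 and 5241 to 6770 for skin, and 5142 to 5691 and 5572 to 7447 for spleen. It gave 612 to 781 liver-enriched genes and 409 to 790 lower everywhere. The sex contrast ran from 2 to 8 and 0 to 11, and the difference from other tissues from 0 to 3 and 0 to 5.

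Single genes were checked for Apoc3, Ttr and the genes named by ratio or by the sex contrast, 62 values in the main fit. Of these, 0 changed direction. Most were picked for large differences in these same data, so a change of direction was unlikely. Genes named only as list members were not in this check. No longer called were 34 values when a replicate was left out and 15 under other settings, beside 1576 and 592 that kept call and direction. Titles carry library numbers that run in 5 sets of 6 tissues, 1 sex and strain a set, but the labels do not say that a set is 1 animal. Deviations from the strain and tissue mean correlated within a set at -0.08 to 0.39 in 4F and 0.04 to 0.29 in B6. Of these, 26 of 45 and 24 of 30 pairs were over 0.1. A library's best match in another tissue was in its own set in 62 of 90 comparisons (4F) and 60 of 60 (B6). With 2 B6 replicates a tissue, their deviations mirror each other, so the B6 values are not separate. The main fit did not pair the sets, so a dependence within sets is not modelled there. With the set as a replicate block, added after seeing the data, 654 genes were liver-enriched and 458 lower everywhere, and no count of the tissue comparisons moved by over 1.5 times.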
